A study of Mus musculus with 16 samples.

Results

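Mitosis and the G2 phase that precedes it depend on a set of genes whose transcripts accumulate late in the cell cycle, and 35 of them were followed here in epithelial basal cells captured from the limbus and from the cornea of mice. The cyclins A and B switch on the kinase Cdk1 and so start mitosis. The spindle checkpoint then holds the cell until every chromosome is attached, after which the anaphase-promoting complex, a ubiquitin ligase, has cyclins and other proteins destroyed. Many of these genes carry in their promoters a short element called CHR (cell cycle genes homology region), which the DREAM and MuvB complexes bind, often beside CCAAT boxes. In the corneal epithelium, the slowly cycling stem cells are thought to lie in the limbus, and their more rapidly dividing progeny in the basal layer.

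The genes were chosen by symbol, and every probe set annotated to 1 of these symbols alone was taken, without regard to its signal. This gave 78 of the 45037 probe sets other than controls, for 34 of the 35 genes. No probe set was annotated to Ccnb1, the cyclin B1 gene, alone, and it is not analysed here. Of the 78 probe sets, 54 passed the filter on dim signals, for 31 genes out of 13570 tested in all. Aurka, Birc5 and Kif20a had no probe set that passed. Where several probe sets of a gene were tested, the brightest stands for the gene.

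The 16 arrays came from 8 wild-type mice. Limbal basal cells were captured from each mouse by laser microdissection (8 arrays), and corneal basal cells from the same 8 mice (8 arrays), 300 cells per capture. Site and animal were taken from the letter and the number in each sample title. The RNA was amplified before labelling. The labels name no strain, age or sex. The comparison asks which transcripts differ between the basal cells of the 2 sites within an animal.

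Scanning took 3 days. Both arrays of mice 1 and 2 were scanned on the first, those of mice 3, 4 and 5 on the next and those of mice 6, 7 and 8 on the last, here called days 1, 2 and 3. Arrays of day 3 were the most alike, with a median pairwise correlation of 0.81 over probe sets, and those of day 2 the least (0.24), with day 1 between (0.48). The corneal array of mouse 5 went against its label, with a signal of 948 for the corneal keratin gene Krt12, against a median of 182564 over the corneal arrays. Results for the mitosis and G2 genes are therefore also given within each scan day and without mouse 5.

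No gene of mitosis or G2 passed the threshold of an adjusted p of 0.05 over all probe sets, while 27 of the 31 tested genes had a lower mean signal in limbal than in corneal captures. Over all genes tested, 0.133% were called at that threshold (0.0851% of probe sets) and 49.1% had a difference below 0. The lean was weaker when the dimmer probe sets were counted too, with 40 of all 54 tested probe sets of the group lower. With the tested probe sets of each gene averaged, 25 of the 31 genes were lower, with a median of -0.34. The median difference of the 31 genes, limbal minus corneal, was -0.38 on the log2 scale, beside 0.01 over all genes. Differences ranged from -1.94 for Nusap1 to 0.39 for Tpx2, with standard errors between 0.39 and 0.73. Without mouse 5 the number with a lower mean was 27 as well, against 50.5% of all genes. Leaving out single mice moved the difference of 23 of the 31 genes by over 1.5 times, with a change of sign in 9 of them. The other 8 were Nusap1, Cenpf, Anln, Mki67, Kif23, Prc1, Racgap1 and Ube2c. With an unadjusted p under 0.05 there were 6 lower genes (Nusap1, Cenpf, Anln, Mki67, Kif23 and Top2a) and 0 higher ones, against 2.62% of all genes lower and 4.1% higher. Over the 54 tested probe sets, 7 were lower and 1 (of Nek2) higher at that p. With no filter, 34 genes were measured, and 7 were lower and 1 higher, Birc5 joining the lower ones and Kif20a being the higher one. The genes of the group were chosen with earlier results of these arrays known, so the counts describe them and carry no test of the group. In 0 of the 31 genes did the limbal and corneal ranges of signal stand apart, against 0.00737% of all genes.

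**Figure D1:**
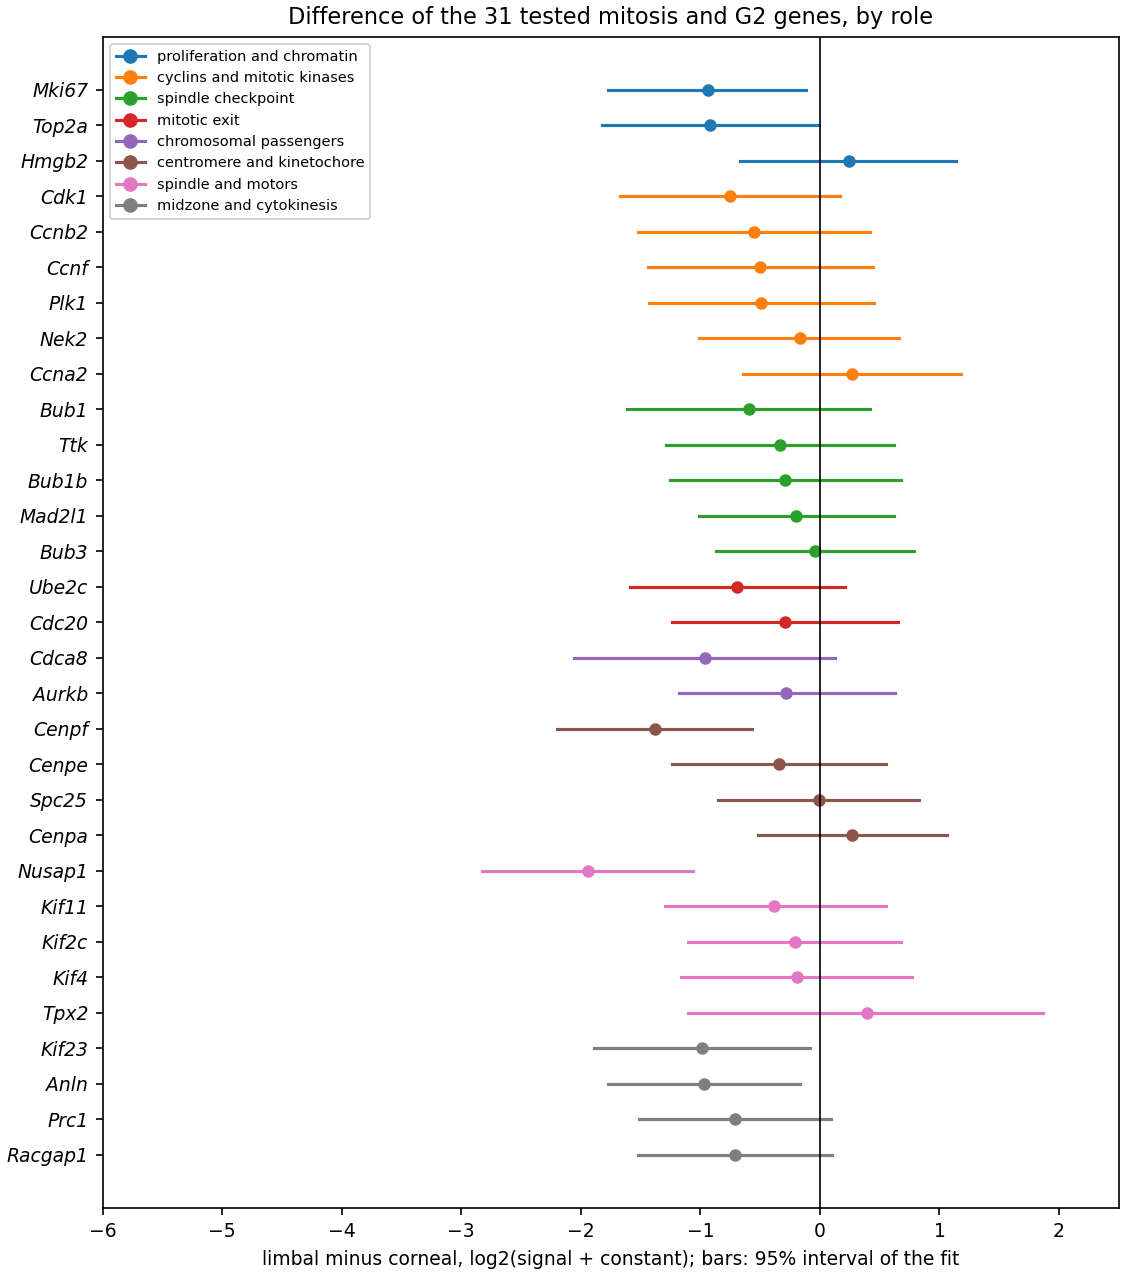
Difference of each of the 31 tested genes, limbal minus corneal, on the log2(signal + 89.4) scale (x axis), with genes down the page by role. Points are means over 8 mice and bars the 95% interval of the limma fit; 27 points lie below 0, and the interval excludes 0 for 6 of them.

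The spindle protein gene Nusap1 and the kinetochore gene Cenpf stood first by p. Nusap1 encodes a protein that bundles and anchors spindle microtubules near chromatin. Its signal was 1290, 201, 61.4, 114, 45.8, 236, 515 and 188 in the limbal arrays of mice 1 to 8, against 815, 2676, 723, 1096, 1026, 1271, 1274 and 787 in their corneal arrays. Every limbal array but that of mouse 1 lay below every corneal array. The difference was -1.94 ± 0.44 (SE), a 3.85-fold lower value in limbal captures, and did not pass (adjusted p = 0.07 in limma). With the mouse as a random term in place of a fixed one it passed (adjusted p = 0.041 in limma), where 0.0851% of probe sets did. With array weights it passed as well (adjusted p = 0.0046), where 0.433% did, and without mouse 2 the adjusted p was 0.44. The other tested probe set of Nusap1 did not share the pattern. Its difference was 0.47, with a median signal of 334 in limbal and 177 in corneal arrays. The mean of both probe sets gave -0.74 for Nusap1 (adjusted p = 0.72).

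Cenpf encodes a large protein of the kinetochore and the nuclear matrix that builds up in G2. Its signal had a lowest, median and highest value of 49.5, 661 and 1124 in limbal arrays, against 492, 1067 and 2802 in corneal arrays. All 8 mice had less in the limbal array, with differences between -2.37 and -0.36 on the log2 scale. The groups overlapped, since the limbal arrays of mice 2, 3, 6, 7 and 8 were brighter than the corneal array of mouse 5. The difference was -1.38 ± 0.40 (adjusted p = 0.29 in limma), and the other tested probe set gave -1.30, also lower in 8 of 8 mice (adjusted p = 0.49).

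**Figure D2:**
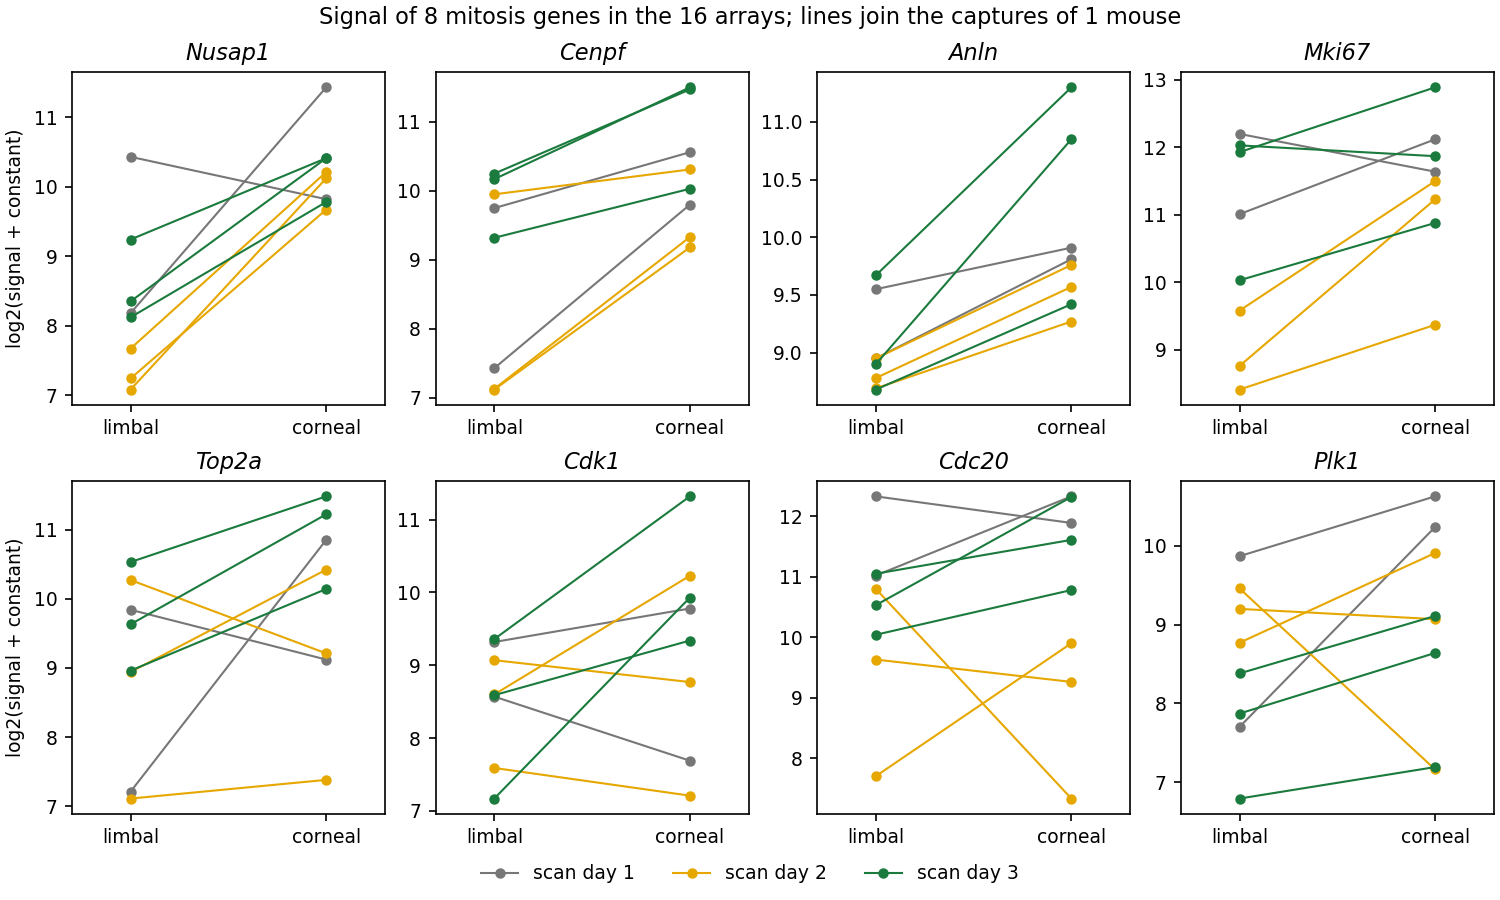
Signal of 8 of the genes as log2(signal + 89.4) (y axis) in limbal and corneal captures, a line joining the captures of each mouse and colours marking the scan day. Cenpf and Anln lines go up from limbal to corneal in all 8 mice and Nusap1 lines in 7, while Top2a, Cdk1, Cdc20 and Plk1 lines run both ways.

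Among the genes of proliferation and chromatin, Mki67 and Top2a were 2 of the 6 with an unadjusted p under 0.05, and neither passed after adjustment. Mki67 encodes the Ki-67 protein that coats mitotic chromosomes and marks cycling cells. Its lowest, median and highest signal was 250, 1469 and 4601 in limbal arrays, against 573, 2948 and 7510 in corneal arrays. The ranges overlapped over most of their length, and 6 of 8 mice were lower in the limbal array. The difference was -0.94 ± 0.41 (adjusted p = 0.71), with -0.27, -1.78 and -0.55 on scan days 1, 2 and 3. Top2a encodes topoisomerase II alpha, which untangles sister chromatids. Its signal ran from 49 through a median of 557 to 1392 in limbal arrays, against 76.7, 1158 and 2775 in corneal arrays. The difference of -0.92 ± 0.45 (adjusted p = 0.77) held -3.65 in mouse 1, and without mouse 1 it was -0.52. Another tested probe set of Top2a gave 0.19. Hmgb2, which encodes a chromatin protein of cycling cells, was at 0.24 ± 0.45, with 4 of 8 mice lower.

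Of the cyclin and mitotic kinase genes 6 were tested, with a median difference of -0.49. Cdk1, the kinase that drives entry into mitosis, had a lowest, median and highest signal of 55.1, 297 and 568 in limbal arrays, against 58.4, 676 and 2461 in corneal arrays. No limbal array reached the corneal median, but the low ends of the ranges coincided. The difference was -0.75 ± 0.45 (adjusted p = 0.84), with -1.82 on scan day 3 and 0.21 and -0.32 on days 1 and 2. Without mouse 6 Cdk1 was at -0.46. Ccnb2, the cyclin B2 gene, differed by -0.55 ± 0.48, and lay between -0.93 without mouse 5 and -0.23 without mouse 3. Ccnf, an F-box cyclin of G2, differed by -0.50 ± 0.46. Plk1, a kinase of centrosome maturation and mitotic entry, had signals of 21.1, 296 and 849 (lowest, median, highest) in limbal arrays, against 53.6, 456 and 1496 in corneal arrays. Its difference was -0.49 ± 0.46, with 6 of 8 mice lower, and lay between -0.89 without mouse 4 and -0.20 without mouse 2. Nek2, a kinase that splits centrosomes, differed by -0.17 ± 0.41 on its brightest probe set and by 0.93 on another (unadjusted p = 0.048, adjusted p = 0.77). Ccna2, the cyclin A2 gene, was at 0.27 ± 0.45 and at 0.28 on its other tested probe set, and lower in 4 of 8 mice.

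The chromosomal passenger complex corrects faulty attachments, and its genes had few measured members. Cdca8, which encodes borealin, had a lowest, median and highest signal of 65.6, 3007 and 10296 in limbal arrays, against 63, 4318 and 19465 in corneal arrays. The difference was -0.96 ± 0.54 over all mice. It held 3.58 in mouse 5, whose corneal array had little Krt12 signal, and -4.73 in mouse 3. Without mouse 5 it was -1.61 (adjusted p = 0.28), and without mouse 3 it was -0.43. Its 2 other tested probe sets gave -0.54 and -0.80. Aurkb, the catalytic subunit, had 54.7, 268 and 1807 in limbal arrays, against 126, 584 and 1477 in corneal arrays, with a difference of -0.28 ± 0.45 that was lower in 4 of 8 mice.

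Birc5, the survivin gene of the same complex, was dim and fell just under the filter, at a mean log2 value of 8.25 where the limit was 8.27. Its signal was 5.8, 69.2 and 494 (lowest, median, highest) in limbal arrays, against 41.7, 402 and 1464 in corneal arrays, and 7 of 8 mice had less in the limbal capture. With no filter the difference was -1.40 ± 0.49 (unadjusted p = 0.0067, adjusted p = 0.68 in limma). The other genes left out by the filter were Aurka, a spindle pole kinase, and Kif20a, a motor of cytokinesis. Aurka was at -0.67 ± 0.43 and lower in 4 of 8 mice, while its dimmer probe set gave 0.37 and was lower in 2. Kif20a was at 1.06 ± 0.40 and lower in 2 of 8 mice (unadjusted p = 0.012, adjusted p = 0.74 in limma). The nearest probe set inside the filter belonged to Prc1, at 8.28.

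The spindle checkpoint genes had a median difference of -0.29 over 5 genes. The kinase gene Bub1 differed by -0.59 ± 0.50, Ttk by -0.33 ± 0.47 and Bub1b by -0.29 ± 0.47. Mad2l1, which encodes the checkpoint protein that holds Cdc20, was at -0.20 ± 0.40 and Bub3 at -0.04 ± 0.41. The other tested probe set of Bub3 gave 0.49 and was lower in 3 of 8 mice. That of Bub1b gave -0.02 and that of Ttk -0.18. The 95% intervals were wide, from -0.87 to 0.79 for Bub3 and from -1.61 to 0.42 for Bub1. Mad2l1 and Bub3 had a lower signal in the limbal array of all 3 mice of scan day 3, with mean differences of -1.04 and -1.09, beside 0.46 and 0.77 on day 1.

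Mitotic exit was represented by Cdc20, an activator of the anaphase-promoting complex, and Ube2c, its ubiquitin-conjugating enzyme. Cdc20 had a lowest, median and highest signal of 119, 1542 and 5073 in limbal arrays, against 72, 2356 and 5074 in corneal arrays. The ranges coincided, and the difference was -0.29 ± 0.47. It held 3.47 in mouse 5 and -2.20 in mouse 4, and was -0.83 without mouse 5 and -0.02 without mouse 4. Its other tested probe set gave -0.36 and was lower in 7 of 8 mice. Ube2c was at -0.69 ± 0.44, with 5 of 8 mice lower.

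Genes of the spindle midzone and cytokinesis had a median of -0.84 over 4 genes, beside -0.92 for the 3 genes of proliferation and chromatin. The median of -0.84 leaves out Kif20a, which did not pass the filter and went the other way (1.06). Anln, which encodes the actin-binding protein anillin of the contractile ring, had a lowest, median and highest signal of 320, 396 and 727 in limbal arrays, against 528, 795 and 2432 in corneal arrays. All limbal arrays except those of mice 2 and 7 lay below the lowest corneal one, and 8 of 8 mice were lower. The difference was -0.97 ± 0.39 (adjusted p = 0.68), while another tested probe set gave -0.15. Kif23, a motor of the central spindle, had 64, 162 and 521 in limbal arrays, against 25.7, 677 and 1108 in corneal arrays, with a difference of -0.99 ± 0.45 (adjusted p = 0.74). Dimmer probe sets of Kif23, which did not pass the filter, gave 0.1 and -0.18. Prc1, which crosslinks midzone microtubules, had 253, 568 and 1325 in limbal arrays, against 260, 1012 and 1876 in corneal arrays, and differed by -0.71 ± 0.39. Racgap1, a GTPase-activating partner of Kif23, had 163, 488 and 927 in limbal arrays, against 112, 988 and 1634 in corneal arrays, and differed by -0.71 ± 0.40. Prc1 and Racgap1 were each lower in 7 mice, the exception being mouse 4 for both.

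On their brightest probe sets, the remaining kinetochore and spindle genes differed by less than their errors, which did not hold for all their other probe sets. The motor genes Kif11, Kif2c and Kif4 were at -0.38 ± 0.46, -0.21 ± 0.44 and -0.19 ± 0.48. Other tested probe sets gave 0.72 and -0.67 for Kif11, and 0.69, -0.27 and -0.26 for Kif2c. Cenpe, a kinetochore motor, was at -0.34 ± 0.44, and Spc25, of the outer kinetochore, at -0.01 ± 0.41. The other tested probe set of Spc25 gave 0.59. Cenpa, the centromeric histone H3 variant, was at 0.27 ± 0.39 on its brightest probe set and at -0.70 on another. Tpx2, a spindle assembly factor, was at 0.39 ± 0.73 on a probe set with signals between 13112 and 152996 in limbal and between 9444 and 180336 in corneal arrays. This probe set had a mean log2 value of 15.32, where the brightest one of any other gene of the group (Cdca8) had 11.4. The 2 other tested probe sets of Tpx2 gave 0.44 (mean log2 value 14.95) and -0.01 (8.67). Of the 18 genes with several tested probe sets, 7 were lower on all of them, 2 higher on all and 9 had probe sets of both signs. Probe sets of a gene read different stretches of its transcripts, and some can bind related ones.

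**Figure D3:**
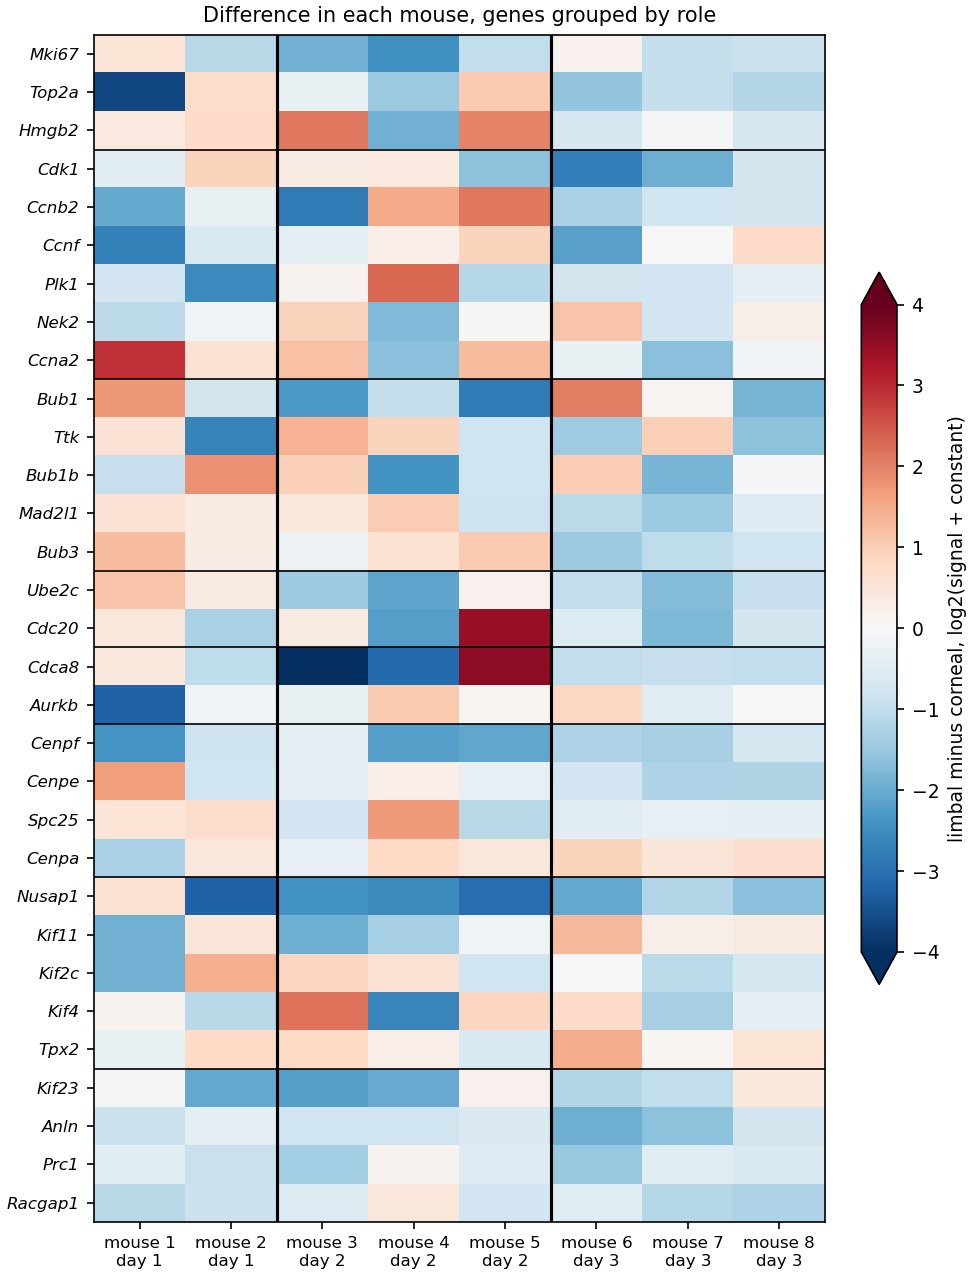
Limbal minus corneal difference of the 31 tested genes (rows, grouped by role) in each of the 8 mice (columns, grouped by scan day), in colour on the log2(signal + 89.4) scale, blue for lower in limbal. In the mice of day 3, 21, 26 and 24 genes are lower, and in those of days 1 and 2 between 16 and 19.

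The mice differed in how evenly the genes went one way. In mice 6, 7 and 8, scanned on day 3, 21, 26 and 24 of the 31 genes were lower in the limbal array, where 47.6, 55.5 and 52.4% of all genes were. In mice 1 to 5 the number was 17, 18, 19, 16 and 17, where 47.5, 45.6, 52.8, 52.5 and 48.1% of all genes were. The median difference was below 0 in every mouse, between -0.96 in mouse 7 and -0.30 in mouse 1. Lower in at least 7 of 8 mice were 5 of the 31 genes (Nusap1, Cenpf, Anln, Prc1 and Racgap1), against 4.38% of all genes, and 0 were higher in at least 7, against 4.37%.

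On scan day 3 alone, 14 of the 31 genes had an unadjusted p under 0.05 and were lower, against 4.26% of all genes, and 0 were higher. None passed after adjustment in limma, which called 0 probe sets of any gene on that day. The median difference of the group was -0.69 on day 3, beside -0.43 on day 1 and -0.14 on day 2. The lowest p belonged to Nusap1 (-1.63 ± 0.39), Cdk1 (-1.82 ± 0.46), Anln (-1.44 ± 0.39), Bub3 (-1.09 ± 0.30) and Top2a (-1.24 ± 0.35), each with an adjusted p of 0.38 or 0.39. Lower in each of the 3 mice of that day were 18 of the 31 genes, against 18.1% of all genes. On day 1 the counts at an unadjusted p under 0.05 were 0 lower and 1 higher, and on day 2 they were 3 lower and 0 higher, against 2.14% and 1.95% of all genes lower. The mean difference over the mice of a day was below 0 for 20, 17 and 25 of the 31 genes on days 1, 2 and 3, against 44.7%, 51.1% and 52.1% of all genes. The difference between days was not tested. Without the arrays of day 2, 8 genes were lower at an unadjusted p under 0.05, against 2.84% of all genes, 0 were called, against 0.0814% of probe sets, and the median was -0.47. With array weights, 14 genes were lower at that p, against 4.2% of all genes, and with the mouse as a random term 4, against 2.49%. Without mouse 5 the number was 8, against 3.28% of all genes, and the median -0.40. Without mouse 6 and without mouse 7 the number was 3 each, against 2.54% and 2.07% of all genes.

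Other genes of the cell cycle were read the same way from lists that were also chosen with earlier results of these arrays known. Of 96 tested further genes of mitosis and G2, 64 were lower in limbal captures, with a median of -0.20, where 49.1% of all genes were lower. At an unadjusted p under 0.05, 7 were lower and 1 higher, against 2.62% and 4.1% of all genes. After adjustment 0 passed, against 0.133% of all genes. The lowest p belonged to the securin gene Pttg1 (-1.68 ± 0.55), the mitotic kinase gene Pbk (-1.26 ± 0.43), Knstrn (-1.28 ± 0.47) and Ckap2 (-1.20 ± 0.44), both of the spindle. Of 48 genes of DNA replication 39 were lower, with a median of -0.30, among them the DNA ligase gene Lig1 (-1.23 ± 0.42) and the ribonucleotide reductase gene Rrm2 (-1.15 ± 0.45), again with 0 past the threshold. Of 16 genes of G1 cyclins, their kinases and inhibitors 6 were lower, with a median of 0.29. Cdk6, a kinase of G1, was at 0.96 ± 0.45 and Ccnd1, the cyclin D1 gene, at -0.90 ± 0.44. At the same unadjusted p, 5 replication genes were lower and 0 higher, and 1 G1 gene was lower and 1 higher. On scan day 3 alone, 82 of the 96, 45 of the 48 and 10 of the 16 genes were lower, against 52.1% of all genes.

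**Figure D4:**
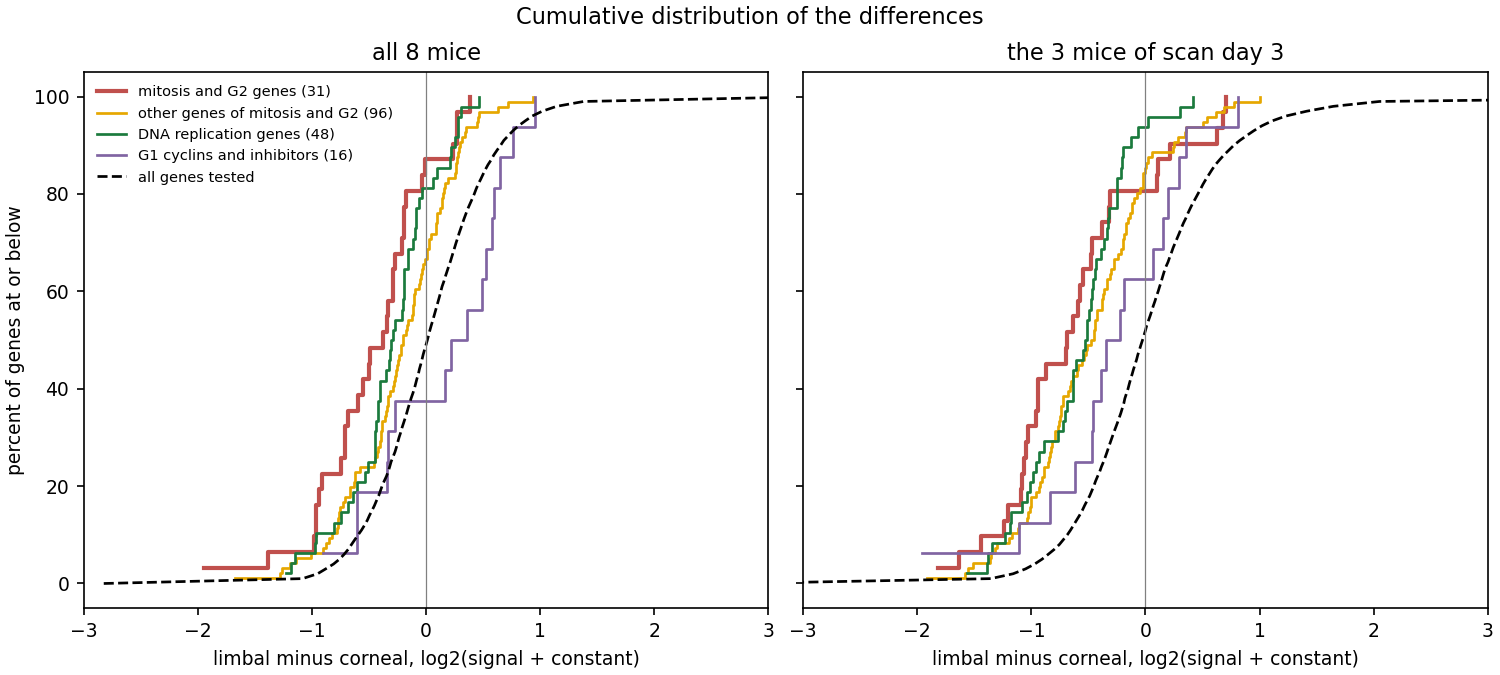
Cumulative percent of genes (y axis) at or below a given limbal minus corneal difference (x axis, log2 scale), for all 8 mice and for the 3 mice of scan day 3. The curves of mitosis and G2 genes, of the other genes of mitosis and G2 and of DNA replication genes lie left of the dashed curve of all genes over most of their length, with medians of -0.38, -0.20 and -0.30 over all mice.

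Marker genes of several cell types also differed in mean signal between the sites. Among them only Krt4, Col1a2, Vim and H2-Aa passed the threshold. Over all genes tested, 49.1% had a difference below 0. Stromal keratocytes and fibroblasts had 9 measured marker genes, and limbal captures had the higher mean in 9, with summed signals from 5751 through a median of 27661 to 278582 in limbal arrays, against 2062, 3886 and 29646 in corneal arrays. Of 6 genes of conjunctival epithelium 6 were higher, with sums of 1511, 13884 and 66890 (lowest, median, highest) in limbal arrays, against 1368, 2418 and 13778 in corneal arrays. Of 8 immune cell genes 8 were higher, with sums of 2459, 17186 and 112604 in limbal arrays, against 1572, 4549 and 11366 in corneal arrays. Of 6 basal epithelial genes 5 were lower, with a median difference of -0.54, among them Trp63 (-1.42 ± 0.41) and Col17a1 (-1.07 ± 0.44), while Krt14 was at 0.83 ± 0.41. Their summed signal was 7510, 20403 and 54495 (lowest, median, highest) in limbal arrays, against 1679, 33574 and 110025 in corneal arrays. Of 6 genes of corneal epithelium 4 had the lower mean in limbal captures, with sums of 91509, 179266 and 352032 in limbal arrays, against 3433, 404829 and 667583 in corneal arrays. These means include mouse 5, where the mean difference was 3.08 for the corneal and 1.81 for the basal genes. In the other mice it lay between -2.43 and 0.34 for the corneal genes and between -2.11 and 0.01 for the basal genes. Krt12 was at 0.1 ± 1.07, though lower in 6 of 8 mice. The mean was higher in limbal captures for 4 of 5 genes of skeletal muscle, 4 of 4 of melanocytes and 3 of 4 of endothelium. None of these passed the threshold, and the melanocyte differences lay between 0.03 (Pmel) and 0.7 (Tyrp1). No defining marker was at 0, but no probe set was on any array (lowest signal 0.2), so this does not show that a marker was expressed. Itgb4, Tyrobp, Mlana, Pmel, Kdr and Pecam1 were too dim to pass the filter. The part of these cells in the difference of the mitosis genes was not tested. In such mixed captures fewer dividing cells and less of these transcripts per dividing cell cannot be told apart.

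Most of these genes whose promoters could be searched held both of the 2 elements known for late cell cycle genes. RefSeq promoter windows of build GRCm38.p6, from 250 bases before to 50 bases after the start, were at hand for 31 of the 35 genes. A CHR element was searched as TTTGAA or TTTAAA and a CCAAT box as CCAAT, both on either strand. Of these 31 genes 27 (87.1%) held a CHR element, against 23.8% of the tested genes with a window and 30.6% of all genes in the table. In the last 100 bases, around the start, 24 (77.4%) held it, against 6.81% of the tested genes, a stretch chosen after the matches were seen. A CCAAT box was in 26 (83.9%), against 42.2% of the tested genes. Both elements were in 24 (77.4%), against 11.0% of the tested genes. E2F sites, searched as TTTCCCGC, TTTGGCGC, TTTCGCGC and TTTGCCGC, were in 1, the window of Cdk1. The windows of Nusap1 and Mad2l1 held neither a CHR element nor a CCAAT box, those of Bub1 and Nek2 held CCAAT boxes only, and those of Anln, Birc5 and Kif2c a CHR element only. In 1 of the windows a CHR and a CCAAT match overlapped. Among the other genes of mitosis and G2, 52.5% of 99 held a CHR element, 58.6% a CCAAT box and 36.4% both. A match is a run of letters and not evidence of binding.

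The windows of Cenpf, Anln, Mki67 and Kif23 are shown because these 4 genes had the lowest p among those with a CHR element, and because they show how its number and place vary. All run 5′ to 3′ on the gene's strand, the minus strand for all 4, at chr1:189688037-189688336 for Cenpf, chr9:22389157-22389456 for Anln, chr7:135716330-135716629 for Mki67 and chr9:61946750-61947049 for Kif23. Capitals mark CHR and CCAAT matches.
Cenpf: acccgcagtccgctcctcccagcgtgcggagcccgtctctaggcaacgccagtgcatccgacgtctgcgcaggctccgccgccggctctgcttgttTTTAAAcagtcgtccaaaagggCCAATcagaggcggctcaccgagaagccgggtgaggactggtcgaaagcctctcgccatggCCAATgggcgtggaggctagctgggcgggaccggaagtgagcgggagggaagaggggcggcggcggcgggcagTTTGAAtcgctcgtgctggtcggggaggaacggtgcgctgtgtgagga
Anln: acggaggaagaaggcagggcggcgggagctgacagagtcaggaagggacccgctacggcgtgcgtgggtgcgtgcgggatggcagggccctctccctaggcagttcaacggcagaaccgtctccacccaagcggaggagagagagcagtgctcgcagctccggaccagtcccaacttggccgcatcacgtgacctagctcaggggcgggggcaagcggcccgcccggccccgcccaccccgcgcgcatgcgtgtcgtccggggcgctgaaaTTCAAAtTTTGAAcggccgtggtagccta
Mki67: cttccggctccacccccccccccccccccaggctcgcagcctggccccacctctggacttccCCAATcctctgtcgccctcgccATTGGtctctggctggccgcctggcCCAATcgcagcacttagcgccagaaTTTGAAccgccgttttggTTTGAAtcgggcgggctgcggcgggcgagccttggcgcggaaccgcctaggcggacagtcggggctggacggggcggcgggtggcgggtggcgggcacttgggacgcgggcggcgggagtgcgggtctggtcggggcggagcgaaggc
Kif23: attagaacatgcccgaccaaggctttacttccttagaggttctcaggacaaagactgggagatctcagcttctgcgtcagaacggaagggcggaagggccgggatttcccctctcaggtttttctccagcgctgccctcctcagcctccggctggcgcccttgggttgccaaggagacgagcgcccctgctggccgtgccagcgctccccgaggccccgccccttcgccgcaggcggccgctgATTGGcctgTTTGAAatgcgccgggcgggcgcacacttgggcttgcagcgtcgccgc
Mki67 had 2 CHR matches upstream of the start, at -116 and -98, behind 3 CCAAT matches, while in Kif23 and Anln the CHR letters lay after the start. Cenpf, which was lower in 8 of 8 mice, and Mki67, which was lower in 6, both held 2 CHR and at least 2 CCAAT matches. Nusap1, with the lowest value of the group in limbal captures relative to corneal ones, held none.

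**Figure D5:**
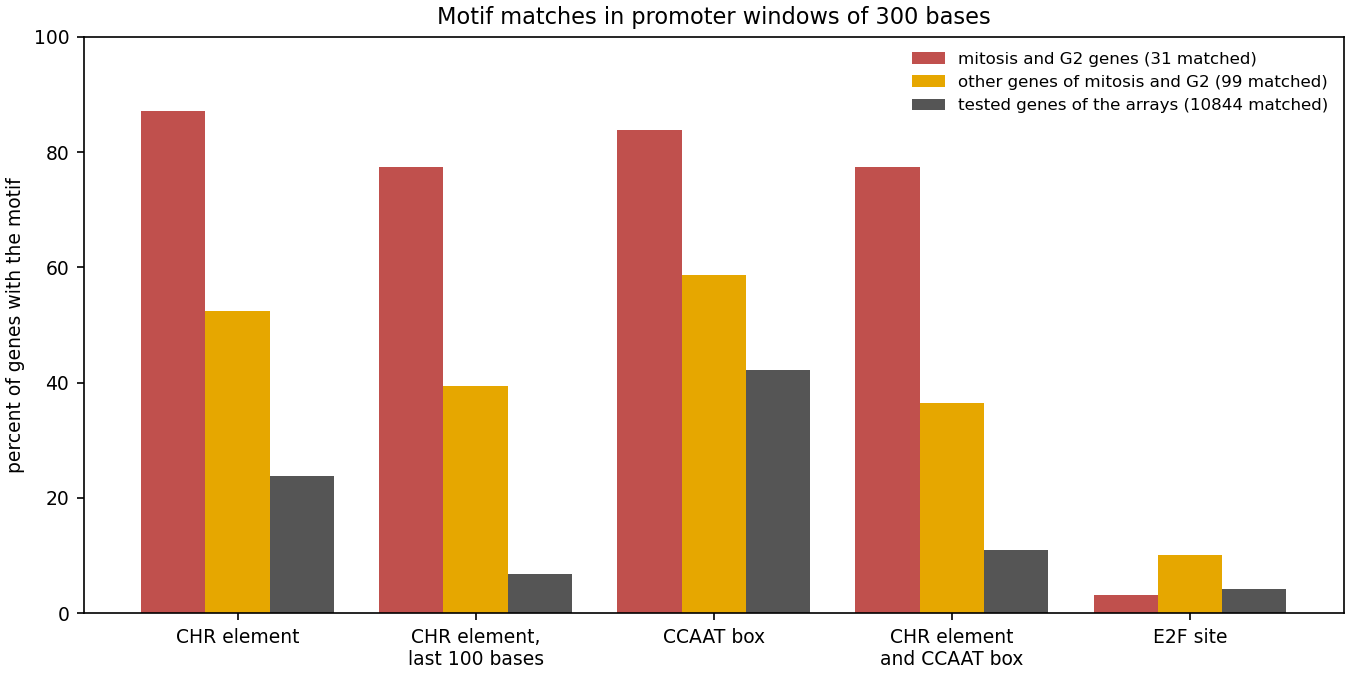
Percent of genes (y axis) whose promoter window of 300 bases holds each motif, for the mitosis and G2 genes (31 matched), the other genes of mitosis and G2 (99) and all tested genes (10844). The CHR element is in 87.1, 52.5 and 23.8% of them, and the E2F site in 3.23, 10.1 and 4.15%.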

How the data were processed

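RNA of 300 captured cells per site and mouse was amplified and labelled with biotin, per the labels' protocols, and read on Affymetrix Mouse430_2 arrays, per the file headers. The authors deposited linear intensity values, 1 for each probe set of an array. How these were computed is not stated in the labels or headers. The trimmed mean (2% cut at either end) was 500.0 in all deposited intensity columns, so each array had been scaled to the same target, which also lifts the background of dim arrays. Scan days came from the array information, per the file headers.

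The scale is log2(signal + 89.4), with the 25th percentile of the table as constant; it understates the change of dim probe sets. The 27022 probe sets whose mean over the 16 arrays exceeded the 40th percentile entered the tests, without 64 controls. Symbols are those of the platform annotation, updated by Entrez identifier (34958 probe sets with 1 symbol, 932 with several). The model was fitted in limma 3.58.1 (R 4.3.3) with a fixed effect per mouse, a variance trend and Benjamini-Hochberg adjustment over all tested probe sets. Mice pair the arrays by design, since each gave both captures. Deviations from the group means correlated within a mouse with a median of 0.3, and over 0.1 in 7 of 8 mice. Arrays of different mice scanned together correlated as much (0.33). The number of arrays limits the precision.

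The genes, roles and lists were chosen with earlier results of these data known. Signals are given for the 8 genes with the smallest p and for genes taken for their roles. A planned search of proteins for the KEN box was not run. Alternatives varied the mouse term (random with statmod 1.5.0), constant, filter, normalization, trend, weights, scan days, probe set averaging and the mice included. On simulated limbal and corneal data (27022 probe sets, 50 changed per size), 6% of changes of log2 size 1 were called, 50% of size 2, 90% of size 3 and 100% of size 4, beside 4 false calls. The simulated noise was independent and equally wide in all arrays, while the estimated weights of the real arrays ran from 0.474 to 5. These rates therefore need not hold for the real arrays.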

Additional observations from a re-analysis of the deposited data

Results flagged for a closer look

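The corneal signal of Nusap1 in mouse 2 stood apart from the other corneal arrays, at a log2 value of 11.43 where the next was 10.41, a gap of 0.58 of the whole range. It was the only such value among 62 sets of 8 arrays examined (31 genes at 2 sites), and chance alone gives about 1 in 20. Without mouse 2 the difference of Nusap1 was -1.76 (adjusted p = 0.44 in limma).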

How the results depend on the processing

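The count of mitosis and G2 genes called was 0 under 21 of 23 alternatives and 1, Nusap1, with the mouse as a random block and with array weights, which gave the arrays of mouse 8 a weight of 5. It was 0 without any single mouse. Without the replicate block, that is without the mouse in the model, it was 0 as well. The median difference was below 0 under all 23 alternatives, between -0.54 and -0.30 where arrays of more than 1 scan day entered, between -0.49 and -0.40 without single mice, and -0.43, -0.14 and -0.69 on scan days 1, 2 and 3 alone, against a spread over mice of 0.27 (SD).

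The number of probe sets called in all was 23. It was 0 with no replicate block, 8 with the filter at the 60th percentile, 3 after quantile normalization, 117 with array weights, 104 on scan day 1 alone, 0 on scan days 2 and 3 alone, and between 0 and 52 without single mice. At an unadjusted p under 0.05 limma had 858 probe sets with no replicate block, 971 on scan day 2 and 2339 on scan day 3, and 1551 without mouse 2, where 0 were called. The cause of these changes was not tested.

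Several genes changed sign under an alternative, none of them called; the cause was not tested. With the constant at the 50th percentile these were Spc25 (0.02). After quantile normalization these were Bub3 (0.06), Mad2l1 (0.14) and Spc25 (0.03). After median centring these were Spc25 (0.01). With array weights these were Ccna2 (-0.11), Kif11 (0.08) and Hmgb2 (-0.22). Without the arrays of scan day 2 these were Bub1 (0.26), Kif11 (0.09), Hmgb2 (-0.06) and Spc25 (0.02). On scan day 1 alone these were Cdk1 (0.21), Bub1 (0.50), Bub1b (0.45), Bub3 (0.77), Ube2c (0.76), Cenpa (-0.42), Cenpe (0.44), Mad2l1 (0.46) and Spc25 (0.62). On scan day 2 alone these were Ccnb2 (0.26), Cdc20 (0.55), Aurkb (0.29), Plk1 (0.43), Bub3 (0.48), Kif4 (0.13), Kif2c (0.20), Mad2l1 (0.21), Ttk (0.50) and Ccnf (0.25). On scan day 3 alone these were Ccna2 (-0.69), Aurkb (0.11), Bub1 (0.10), Kif11 (0.62), Hmgb2 (-0.47) and Nek2 (0.21). Over the mean of a gene's probe sets these were Bub3 (0.22), Cenpa (-0.22), Nek2 (0.38) and Spc25 (0.29). Without single mice, Aurkb lay between -0.47 and 0.15, Bub1b lay between -0.59 and 0.02, Bub3 lay between -0.22 and 0.16, Ccna2 lay between -0.11 and 0.55, Hmgb2 lay between -0.03 and 0.55, Kif2c lay between -0.44 and 0.04, Kif4 lay between -0.53 and 0.16, Nek2 lay between -0.36 and 0.06 and Spc25 lay between -0.25 and 0.15.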
